A study of Sus scrofa with 599 samples.

Results

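Bins of intermediate compartment frequency were 20-kb windows of the pig genome that carried a positive A-B index, the sign given to the active compartment, in 40 to 60% of the Hi-C samples. Of 113298 bins on 18 autosomes, 3632 (3.21%) were positive in 96 to 144 of 240 samples, whereas 52881 were positive in more than 60% and 56785 in fewer than 40% of the samples. The bins were chosen by the sign of the index over all samples, so their frequency and their level near 0 describe the choice and were not tested. The limits cut through a continuous range, since 70 bins were positive in 95 samples and 66 bins in 96, with median mean indices of -0.156 and -0.160, and 73 bins were positive in 144 samples and 70 bins in 145, with medians of 0.158 and 0.160.

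The samples were adipose tissues of adult female Bama pigs aged 2 years in 3 dietary states. NC pigs received a normal diet, WG pigs gained weight over 22 weeks of high-fat feeding, and in WL pigs those 22 weeks were followed by 12 weeks of restriction to 10% of the normal intake. GOM (greater omentum), MAD (mesenteric) and RAD (retroperitoneal) are visceral depots, and ULB, the upper layer of backfat, is subcutaneous. For Hi-C, the NC groups held 9 GOM, 12 MAD, 12 RAD and 5 ULB samples, the WG groups held 46, 37, 40 and 39, and each WL group held 10. RNA-seq was used for 236 samples, with 1 fewer in each of the 4 WG groups. H3K27ac enhancer regions came as 18 tables, most made from pooled samples. For NC MAD and for WG group6 RAD, a subgroup of WG, the labels give only 1 H3K27ac library. RNA-seq and H3K27ac used whole tissue. For Hi-C, the paper describes spinning the fixed tissue and lysing the upper layer that holds the adipocytes. The cell mix behind the index may thus differ from that behind expression and enhancer regions. None of the samples was a single cell type, so fewer cells of a type and less RNA or a weaker signal per cell cannot be told apart.

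Mammalian chromosomes fold into an A compartment, which is rich in genes, open and transcribed, and a B compartment, which is gene-poor and largely silent. Compartment borders lie where the index changes sign along a chromosome, and a region may take a different compartment in another cell type, with genes in it often, though not always, more active in A. In a bulk tissue an index near 0 may come from a bin at the edge of a compartment or from alleles and cells in different states.

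Chromosome 10 stood apart before any group was compared. It held 589 of the 3632 intermediate bins (16.2%), 16.98% of its own bins, against 2.02 to 3.57% on each of the other 17 chromosomes. The index profile of chromosome 10 correlated with its median profile over samples at a median r of 0.932 but as low as -0.915, and below 0.9 in 98 samples, whereas on the other chromosomes the lowest r was 0.857. The index is usually signed so that the A compartment is richer in GC. On chromosome 10 the per-sample correlation of index with GC content ran from -0.168 to 0.538 with a median of 0.00459 and was negative in 119 samples, while the medians on the other chromosomes lay between 0.442 and 0.734 and the lowest value of any sample was 0.379. The longest run of intermediate bins, 207 bins at chr10:34080001-38220000, was positive over at least 90% of its length in 127 samples and over at most 10% in 103, with 10 samples between. It was at 90% or more in 34 of 46 WG GOM and 6 of 39 WG ULB samples, yet 11 WG GOM samples had it at 10% or less. NC gave 8 of 9 GOM and 1 of 5 ULB samples at 90% or more. In WL the depots were close, with 4 GOM and 3 ULB samples of 10 at 90% or more and 5 and 7 at 10% or less. WG RAD was divided, with 21 and 18 of 40. The run thus did not follow the depot in every diet. Because the sign of the profile differed between samples, results are given with and without chromosome 10, and the 3043 intermediate bins (2.77% of bins) elsewhere carry the account.

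**Figure D1:**
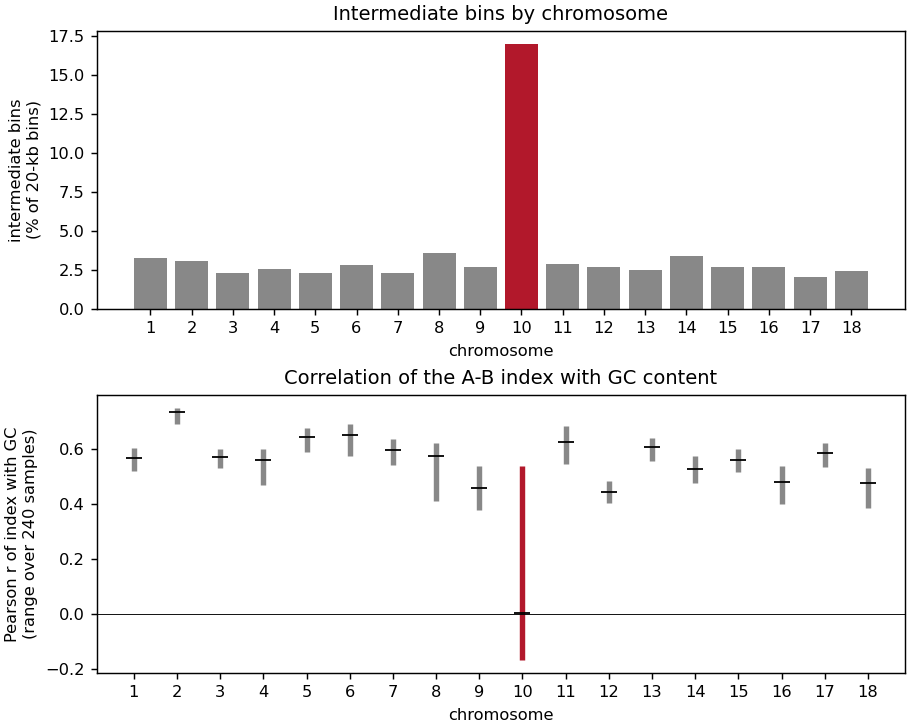
Share of 20-kb bins with intermediate frequency on each chromosome (top, percent) and the correlation of the index with GC content per chromosome (bottom, Pearson r; bars span the 240 samples and ticks mark medians). Chromosome 10 holds 16.98% intermediate bins and its correlations straddle 0, while every other chromosome holds at most 3.57%, with a lowest correlation of 0.379.

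The RNA libraries held 3.34e+06 to 2.29e+07 estimated counts (median 1.68e+07), and 48 of 236 had less than 90% of their TPM on protein-coding genes, among them 7 of 9 NC GOM and 8 of 10 WL GOM libraries against 4 of 45 WG GOM. Adipocyte markers were abundant in every group, with summed medians between 7822 TPM in NC GOM and 23216 TPM in WL RAD. Among WG ULB libraries, replicate 7 stood apart with 23.8 TPM of WT1 and 10.4 TPM of UPK1B, where the next highest held 0.741 and 0.713 TPM, and WG GOM replicate 35 held no UPK1B, where the next lowest had 5.83 TPM. Both are mesothelial markers, and the WG comparisons of GOM and ULB for the 4 genes shown next are given with and without these 2 libraries.

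Genes starting in intermediate bins included several that separate omental from subcutaneous fat, and the promoters of the 4 that carry the results below are shown first. Each sequence covers 250 bases before and 50 bases after the RefSeq start on Sscrofa11.1, reads 5′ to 3′ on the gene's strand, and has each CG dinucleotide in capitals.
WT1, chr2:28411217-28411516, plus strand: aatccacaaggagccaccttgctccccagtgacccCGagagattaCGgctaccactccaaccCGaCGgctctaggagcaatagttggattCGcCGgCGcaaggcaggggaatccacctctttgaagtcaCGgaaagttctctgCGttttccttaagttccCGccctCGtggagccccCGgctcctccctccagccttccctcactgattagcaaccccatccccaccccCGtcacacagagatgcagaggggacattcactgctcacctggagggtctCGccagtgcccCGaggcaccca
BNC1, chr7:51650929-51651228, plus strand: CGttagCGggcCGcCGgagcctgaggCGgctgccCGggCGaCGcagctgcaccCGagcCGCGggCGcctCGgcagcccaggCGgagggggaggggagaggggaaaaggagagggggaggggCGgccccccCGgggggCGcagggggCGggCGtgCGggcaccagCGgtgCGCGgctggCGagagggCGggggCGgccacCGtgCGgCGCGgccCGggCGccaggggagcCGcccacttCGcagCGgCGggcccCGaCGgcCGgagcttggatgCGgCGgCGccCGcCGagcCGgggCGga
LRP2, chr15:75754555-75754854, minus strand: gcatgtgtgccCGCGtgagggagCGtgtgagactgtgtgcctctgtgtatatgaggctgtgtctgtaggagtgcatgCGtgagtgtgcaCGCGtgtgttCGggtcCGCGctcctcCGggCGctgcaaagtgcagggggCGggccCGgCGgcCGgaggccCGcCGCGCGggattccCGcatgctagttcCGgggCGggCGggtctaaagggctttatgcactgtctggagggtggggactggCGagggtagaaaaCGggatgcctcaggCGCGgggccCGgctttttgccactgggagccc
CXCL14, chr2:137813069-137813368, minus strand: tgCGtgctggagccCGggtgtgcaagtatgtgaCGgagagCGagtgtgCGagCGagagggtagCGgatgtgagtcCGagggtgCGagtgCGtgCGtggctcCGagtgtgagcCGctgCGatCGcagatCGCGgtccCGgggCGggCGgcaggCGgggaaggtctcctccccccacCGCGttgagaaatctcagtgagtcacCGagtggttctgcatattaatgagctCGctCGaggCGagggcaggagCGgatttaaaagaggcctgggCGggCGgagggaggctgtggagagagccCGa

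WT1 encodes a zinc-finger transcription factor of mesothelium, kidney and gonad, BNC1 the zinc-finger protein basonuclin 1, LRP2 the endocytic receptor megalin and CXCL14 a chemokine. Their promoters held 15, 46, 28 and 31 CG dinucleotides, against a median of 16 over 18722 promoters of the same length, and a GC content of 60.3, 83.3, 67.3 and 65.3%, against a median of 58.7%. The GC box GGGCGG, searched on both strands as GGGCGG and CCGCCC, occurred 1 time in WT1, 6 times in BNC1 and 2 times each in LRP2 and CXCL14, and in 50.8% of all promoters. TATAAA, searched in the same way, was in none of the 4 and in 10.8% of all. As a class, the 415 RefSeq promoters in intermediate bins outside chromosome 10 were poorer in these letters, with a median of 8 CG dinucleotides, a median GC content of 52.7%, the GC box in 37.1% and TATAAA in 14.7%.

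Most intermediate bins sat on the edge of a compartment. Outside chromosome 10 the 3043 bins formed 1878 uninterrupted runs, of which 1270 (67.6%) were a single bin. An A bin on one side and a B bin on the other flanked 1252 runs (66.7%), with 1875 bins. A further 349 runs (18.6%, 710 bins) lay between A bins on both sides and 273 (14.5%, 454 bins) between B bins, while 4 touched a chromosome end. Of the intermediate bins, 90.5% were within 100 kb of one of the 2852 places where the majority sign changed, against 18.9% of all bins, and 68.6% touched such a border against 4.85%. Part of this follows from the choice, as the frequency must pass 50% at a majority border. At least 200 kb from any border lay 176 of the 3043 bins (5.78%). With chromosome 10 included, 80.3% of the intermediate bins were within 100 kb (18.5% of all bins), and on chromosome 10 alone 27.8% (6.49%).

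In single samples the borders were more numerous, from 4378 to 9826 outside chromosome 10 with a median of 5273.5, and 16.5 to 40.1% of them (median 31.2%) touched an intermediate bin. Around the 1252 runs between an A and a B bin, the mean index fell in every one of the 12 groups from 0.75 to 1.304 at 100 kb on the A side, through -0.27 to 0.23 at the centre, to -1.15 to -0.73 at 100 kb on the B side. The fall follows from how the runs were picked and oriented, and the profile is a description. The longest runs elsewhere were 17 bins at chr6:107460001-107800000 between A and B, 15 bins at chr8:23560001-23860000 and 12 bins at chr6:67880001-68120000, both inside A, and no protein-coding gene started in any of the 3.

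**Figure D2:**
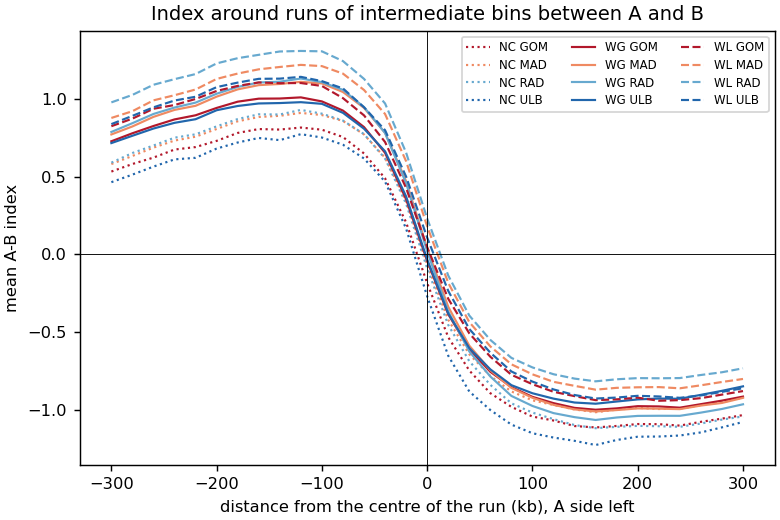
Mean A-B index (vertical axis, no unit) against the distance in kb from the centre of runs of intermediate bins flanked by A on the left and B on the right, outside chromosome 10, with 1 line for each of the 12 groups. All lines cross from 0.75 to 1.304 at 100 kb on the A side to between -1.15 and -0.73 at 100 kb on the B side.

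The sequence and gene content of these bins also lay between those of the compartments. The authors signed the index by gene density and GC content, so these measures are not independent of the choice. Outside chromosome 10 the median GC content was 41.2% in intermediate bins, 43.7% in bins above 60% frequency and 38.1% in bins below 40%, and the CpG density was 10.0, 13.8 and 6.85 per kb. Repeats masked 33.7, 33.5 and 35.02% of the bases. Protein-coding genes started at 13.6 per 100 intermediate bins, against 27.8 above 60% and 6.69 below 40%, and 12.1% of the bins held a start (22.2 and 5.89%). Other bins within 100 kb of a border had much the same GC content (41.035%) and CpG density (10.2 per kb) but more gene starts, 19.1 per 100 bins. The 589 intermediate bins of chromosome 10 had a GC content of 38.2% and 8.998 starts per 100 bins, nearer to the B class.

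Boundaries of topologically associating domains (TADs), the self-interacting blocks below the level of compartments, were found in 9.63% of the intermediate bins outside chromosome 10 in the median sample, with a range of 7.89 to 11.6%. The medians were 10.4% above 60% frequency, 7.49% below 40% and 12.8% in the other bins near a border. Intermediate bins exceeded the bins below 40% in 240 of 240 samples, exceeded the bins above 60% in 17, and exceeded the other border bins in 0. Few of the boundaries were stable, as 54 intermediate bins (1.77%) held one in at least 80% of the samples (2.61% above 60% frequency and 0.625% below 40%) and 1035 (34.01%) held one in no sample. ULB had the highest group mean in each diet, at 11.02 ± 0.467% (SD, n = 5) in NC, 10.2 ± 0.532% (n = 39) in WG and 10.3 ± 0.467% (n = 10) in WL, against 9.29 ± 0.374% (n = 9), 9.44 ± 0.492% (n = 46) and 9.61 ± 0.797% (n = 10) in GOM. In NC the ULB samples (10.3 to 11.5%) and the GOM samples (8.77 to 9.99%) did not overlap, in WG and WL they did, and the difference was not tested.

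H3K27ac marks active enhancers and promoters, and the enhancer regions again put the intermediate bins between the classes. Across the 18 tables a median of 35.3% of intermediate bins outside chromosome 10 overlapped an enhancer region (21.8 to 43.02%), against 61.9% of bins above 60% frequency, 10.97% below 40% and 33.8% of the other bins near a border. Super-enhancers, the strongest clusters of such regions, overlapped 2.09%, 14.6%, 0.310% and 3.39%. An enhancer region was present in all 18 tables in 147 intermediate bins (4.83%, against 18.3% above 60% and 0.984% below 40%) and in no table in 825 (27.1%, against 10.7% and 68.2%). Each table was pooled over the samples of its group or rested on 1 library, so the tables carry no replicate error.

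The share of intermediate bins that were positive differed widely between samples. A wider range than over all bins follows from the choice of bins whose sign changes between these samples. Outside chromosome 10 it ran from 17.1 to 72.2% with a median of 51.6%, while the share of all bins that were positive stayed between 42.6 and 50.8% with a median of 48.1%. The group medians were 39.2, 45.9, 39.98 and 33.4% in NC GOM, MAD, RAD and ULB, 50.6, 55.1, 50.7 and 51.6% in WG, and 55.7, 64.8, 66.2 and 55.2% in WL. The NC medians were thus the lowest and the WL medians the highest in every depot, but the samples of most groups overlapped. The 10 WL RAD samples (63.7 to 68.7%) were all above the 12 NC RAD samples (28.7 to 55.3%). The same held for the share of all bins outside chromosome 10 (49.4 to 50.2% against 44.8 to 48.7%), so it was not particular to the intermediate bins. After quantile normalization, which gives every sample the same distribution of indices, the share ran from 45.4 to 55.2% and the group medians from 46.9 to 52.3%, a narrower spread than in the deposited values.

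**Figure D3:**
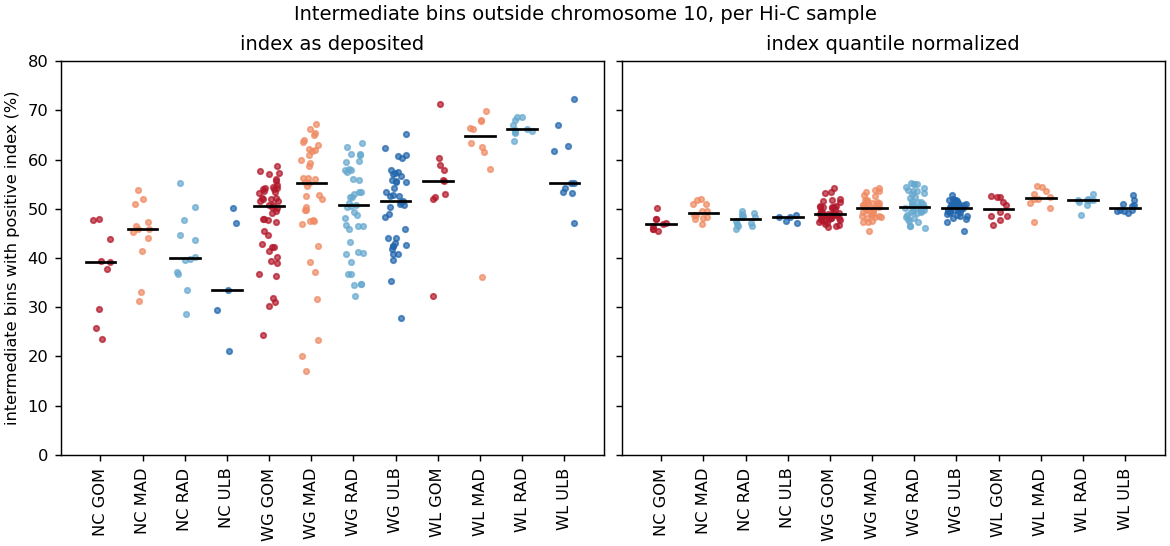
Percent of the intermediate bins outside chromosome 10 with a positive index (vertical axis), 1 point per Hi-C sample in the 12 groups, as deposited (left) and after quantile normalization (right); horizontal bars mark group medians. The deposited values span 17.1 to 72.2% and the normalized ones 45.4 to 55.2%.

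Most bins of intermediate frequency over all samples were high in some group and low in another. With a high frequency set at 70% or more of a group's samples and a low one at 30% or less, 3431 of the 3632 bins (94.5%) were high in at least 1 of the 12 groups and low in another, and 2851 of 3043 (93.7%) outside chromosome 10. Small groups make such contrasts easier to reach, and the share over the other bins was not counted for the 12 groups. Of the 3632 bins, 1575 were neither high nor low in at least as many groups as they were high or low. Among the 4 WG depots, each with at least 37 samples, 1271 bins outside chromosome 10 (41.8%) were high in a depot and low in another, against 1100 (1.03%) of the bins outside the intermediate range, and 515 (16.9%) were neither high nor low in any of the 4. GOM and ULB were opposed most often, with 301 bins high in GOM and low in ULB and 376 the reverse. GOM and RAD were opposed in 321 and 256 bins, whereas MAD and RAD were in only 25 and 10. These frequencies come from the same signs as the choice and were not tested.

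Between diets, fewer bins crossed from low to high or back. From NC to WG outside chromosome 10, 28, 97, 79 and 91 bins went from low to high in GOM, MAD, RAD and ULB, and 0, 10, 14 and 10 went the other way. From WG to WL, 39, 33, 161 and 133 went from low to high and 12, 16, 15 and 35 the reverse. The median index of all bins outside chromosome 10 moved by 0.14, 0.05, 0.14 and 0.25 from NC to WG in GOM, MAD, RAD and ULB, and by 0.03, 0.05, 0.15 and -0.02 from WG to WL. The intermediate bins thus went in the direction of the whole scale except from WG to WL in ULB.

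Over these samples the depot accounted for more of the spread than the diet. The shares depend on group sizes and numbers, as the 4 depots were similar in size while WG held most samples of the 3 diets. A smaller share for diet thus need not mean a smaller effect. Of the variance of the index over the 240 samples, differences between depots made up a median of 18.7% per intermediate bin outside chromosome 10 (13.3% over all bins), with a maximum of 79.3%, and differences between diets 5.01% (4.21%). The 12 groups together made up 29.9% (25.1%), and the rest lay between samples of one group. The SD within groups had a median of 0.469, close to that of bins above 60% (0.467) and below 40% (0.485), and the SD between group means was 0.383, 0.338 and 0.313. On chromosome 10 the SD within groups was 2.11, and depot and diet made up 9.66 and 1.05%.

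The index of GOM and ULB was then compared in each diet with limma over all bins, with a call at an adjusted p under 0.05 and a difference of means over 0.75. In NC, 1351 intermediate bins were called (499 higher and 852 lower in ULB), against 20.5% of all bins. In WG 1419 were called (623 and 796) against 18.8% of all bins, and in WL 1084 (550 and 534) against 19.4%. Outside chromosome 10 the counts were 869 (406 higher and 463 lower), 833 (446 and 387) and 1055 (550 and 505), so in NC and WG many of the calls were on chromosome 10. These counts are 28.6, 27.4 and 34.7% of the intermediate bins there, against 19.7, 17.5 and 19.8% of all bins there. As the index chose the bins, nothing is read from the distance between these shares.

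Outside chromosome 10, 537 intermediate bins (17.6%, against 8.18% of all bins) were called in the same direction in all 3 diets. Of these, 276 were higher and 261 lower in ULB. They made up 61.8, 64.5 and 50.9% of the calls in NC, WG and WL, against 41.5, 46.8 and 41.3% over all bins. No intermediate bin was called in opposite directions (15 of all bins), and 1397 (45.9%) were called in at least 1 diet, against 32.8% of all bins. As the index chose the bins, nothing is read from these distances either. The enhancer tables, which the choice did not use, went with these calls. In the 463 bins lower in ULB in NC, 67.8% overlapped a GOM enhancer region and 31.1% a ULB one, and in the 406 bins higher in ULB 25.1 and 47.3%, and the 2174 bins not called gave 40.3 and 32.5%. In WL the lower bins gave 66.3 and 38.02% and the higher bins 24.9 and 51.5%. In WG, with the tables of the subgroup that had both depots, the lower bins gave 63.0 and 17.6% and the higher bins 31.6 and 35.7%, while bins not called gave 36.7 and 19.8%. These are shares of bins in pooled tables, without a test.

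The bins with the widest difference between GOM and ULB in WG included 5 on chromosome 10. The largest were chr10:25060001-25080000 (-6.75), chr10:25080001-25100000 (-5.37) and chr10:34280001-34300000 (-3.57) lower in ULB, and chr10:19880001-19900000, where TP53BP2 starts (2.62), and chr10:23840001-23860000 (2.58) higher in ULB. As the sign of the chromosome 10 profile differed between samples, these differences may hold a change of sign and their direction is uncertain. Outside chromosome 10 the widest differences lay in only 2 places. The 3 higher in ULB were adjoining bins at chr8:133020001-133080000, within the 744-kb gene ARHGAP24, a GTPase-activating protein, with differences of 2.34 to 2.52. The 3 lower in ULB were chr2:28400001-28420000, chr2:28440001-28460000 and chr2:28460001-28480000, at and beside WT1, with differences of -2.88, -2.87 and -2.87.

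Diet moved the index of fewer intermediate bins. From NC to WG, 33 bins rose and 14 fell in GOM (2.68 and 0.11% of all bins), 48 rose and 18 fell in MAD (3.8 and 0.678%), 70 rose and 30 fell in RAD (3.69 and 0.631%), and 225 rose and 21 fell in ULB (5.57 and 0.579%). From WG to WL, 117 rose and 7 fell in GOM (1.75 and 0.782% of all bins), 48 rose and 3 fell in MAD (0.836 and 0.169%), 157 rose and 4 fell in RAD (3.62 and 0.205%), and 167 rose and 24 fell in ULB (2.92 and 7.04%). Rises were the more frequent among the intermediate bins in all 8 comparisons and among all bins in each but the last, where falls were. Quantile normalization evened or turned the balance among the intermediate bins. Outside chromosome 10 it left 12 rises and 33 falls from NC to WG in GOM, 22 and 39 in MAD, 38 and 56 in RAD, 62 and 63 in ULB, and 29 and 13, 6 and 10, 18 and 22, and 90 and 42 from WG to WL. Among the intermediate bins, rises outnumbered falls under both scalings only from WG to WL in GOM and ULB. Over all bins outside chromosome 10 the normalized counts from NC to WG were 990 and 448, 1301 and 795, 1249 and 1384, and 1185 and 1255. From WG to WL they were 611 and 336, 505 and 300, 1301 and 768, and 2508 and 1470. There, falls were the more frequent only from NC to WG in RAD and ULB. In ULB the NC to WG count also rested on 1 of 5 NC samples, as 44 bins were called without replicate 5.

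The genes of the intermediate bins were quieter than their neighbours. Of 13052 protein-coding genes that could be placed by symbol, 306 (2.34%) started in 281 intermediate bins, 267 of them outside chromosome 10. Those 267 had a median of 6.89 TPM (quartiles 0.631 and 24.4), against 15.6 TPM in bins above 60% frequency, 1.32 TPM below 40% and 13.7 TPM in the other bins near a border. A mean above 0.5 TPM was reached by 212 of 267 (79.4%), against 88.0, 64.01 and 83.1%. Levels are on the TPM scale, which corrects for gene length.

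The 10 most abundant were DCN and LUM, the matrix proteoglycans decorin and lumican of fibroblasts, NME2, a nucleoside diphosphate kinase, YBX3, a cold-shock domain RNA-binding protein, SRSF11, a splicing factor, GHITM, a protein of the mitochondrial inner membrane, PLPP3, a phospholipid phosphatase, BTC, the EGF-receptor ligand betacellulin, TMEM106B, a lysosomal membrane protein, and WASHC3, a subunit of the endosomal WASH complex. Group medians of DCN ran from 955 TPM in WL MAD to 2558 TPM in NC ULB, those of LUM from 167 to 360.2 TPM and those of BTC from 32.7 to 173 TPM. BTC was lower in ULB than in GOM in NC (log2 fold change -1.03, SE 0.27, edgeR adjusted p = 0.00913) and in WG (-2.11, SE 0.19, adjusted p = 1.28e-16), and in WL the value was -1.09 with an adjusted p of 0.0629. GHITM was higher in ULB in NC (1.25, SE 0.29, adjusted p = 0.00453), as were NME2 (1.02, SE 0.25, adjusted p = 0.00659) and TMEM106B (0.83, SE 0.20, adjusted p = 0.0058), and for none of these 3 did the fold reach 1.5 in WG or WL. The GHITM call ended (adjusted p = 0.0945) with a term for libraries under 90% of TPM on protein-coding genes, 7 of 9 in NC GOM and 2 of 5 in NC ULB. With a block for the replicate number, neither GHITM nor NME2 was called in NC. DCN did not reach that fold in any diet, although the index of its bin differed by -0.69 in WG, under the limit of 0.75, and by -1.36 in WL.

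Few genes of the lists fixed in advance started in the intermediate bins. None of 15 placed adipocyte genes and none of 13 placed adipogenic and progenitor genes started in them. The patterning list gave 8 of 167 (BNC1, NKX2-4, FOXA2, LHX5, WT1, NR2F1, NKX6-3 and FOXD2), the immune list 8 of 184 (CD207, IL21, IL5RA, CXCL14, CCL3L1, CCL4, CCL14 and CCL16), zinc fingers 6 of 217 (ZNF471, ZNF25, ZNF32, ZNF304, ZNF397 and ZNF883), ion channels and receptors 3 of 170 (KCNIP3, CACNA1E and GABRP), matrix genes 3 of 95 (ADAMTS6, LAMA1 and COL25A1), solute carriers 3 of 314 (SLC22A16, SLC25A48 and SLC7A9) and synaptic and adhesion genes 2 of 54 (LRFN2 and PCDH18). No olfactory receptor gene could be placed. All placed genes together gave 2.34%. At that share, lists of 15 and 13 genes are too short to show an absence, and no contrast between lists is read from these counts.

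Expression differed between GOM and ULB mostly toward lower levels in ULB. Genes were tested with edgeR over all detected genes and called at an adjusted p under 0.05 and a fold change over 1.5. In NC, 18 of 221 tested genes of the intermediate bins were higher and 39 lower in ULB, against 14.7 and 10.9% of all placed genes. In WG 20 of 223 were higher and 40 lower, against 7.82 and 10.2%, and in WL 9 of 226 were higher and 39 lower, against 6.55 and 9.87%. A gene counts as tested if it passed 0.5 TPM in 80% of the samples of either group, so a gene expressed in 1 depot alone entered only through that depot. In all 3 diets 24 genes were called in the same direction, which is 42.1, 40 and 50% of the calls in NC, WG and WL, and no gene was called in opposite directions. The same count over all placed genes was not made, so nothing is read from these shares. CXCL14 and VGLL3, a transcription cofactor, were higher in ULB. The other 22 were lower, among them WT1, BNC1, LRP2, ZFPM2, SERPINB2, SELP, VIPR2, NTN1, PAPPA, PID1, SUCNR1, OLR1, COLEC12, CDCA7L, GPR171, LPCAT4, PANK1, RIPOR2, SAMD5, SAMD12 and ZDBF2. SELP encodes P-selectin, an adhesion molecule of leukocyte traffic, VIPR2 a receptor of vasoactive intestinal peptide, SUCNR1 the succinate receptor and OLR1 a receptor of oxidised LDL. With a block for the replicate number, the NC count fell from 57 to 29 genes. CXCL14, SUCNR1, VIPR2 and COLEC12 were among those not called in NC with this block.

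WT1 started at chr2:28411467 on the plus strand in a bin positive in 120 of 240 samples (50%), within a run of 7 intermediate bins (chr2:28380001-28520000). The index of this bin was positive in 9 of 9 NC GOM samples (0.468, median 2.43, 3.25 as lowest, median and highest) and in 0 of 5 NC ULB samples (-1.81, -1.79, -1.47, -0.748 and -0.339). In WG it was positive in 45 of 46 GOM samples (-0.361, 1.84, 3.65) and 0 of 39 ULB samples (-1.97, -0.981, -0.115), and in WL in 10 of 10 and 0 of 10. MAD and RAD lay between in WG, positive in 21 of 37 and 11 of 40 samples. In NC they were positive in 8 of 12 and 1 of 12 samples, and in WL in 10 of 10 and 5 of 10. So the 50% overall was made of a depot where the bin was nearly always A, a depot where it was always B, and 2 depots that were divided.

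WT1 expression was likewise highest in GOM and lowest in ULB. NC GOM held 31.9 to 130 TPM (median 71.8) and the 5 NC ULB libraries 0.0975, 0.238, 0.627, 0.963 and 2.38 TPM. In WG the levels were 12.9, 40.2 and 182 TPM in GOM and 0, 0.154 and 23.8 TPM in ULB as lowest, median and highest, and in WL 21.9, 48.2 and 181 TPM against 0, 0.0144 and 1.71 TPM. GOM and ULB did not overlap in NC and WL, and in WG only the library of ULB replicate 7 reached the GOM range. The log2 fold change of ULB over GOM was -6.50 (SE 0.58, edgeR adjusted p = 6.38e-07) in NC, -5.86 (SE 0.44, adjusted p = 5.47e-21) in WG and -7.77 (SE 0.65, adjusted p = 5.29e-09) in WL. Without the 2 libraries that stood apart the WG value was -7.85 (SE 0.26, adjusted p = 3.15e-43), a choice made after seeing the data. MAD and RAD again lay between, with WG medians of 8.85 and 7.21 TPM. In NC their medians were 8.46 and 8.80 TPM, without the difference seen in the index, and in WL 6.77 and 5.24 TPM.

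BNC1 started at chr7:51651179 on the plus strand in a lone intermediate bin positive in 55.4% of the samples. The bin was positive in all 9 NC, 46 WG and 10 WL GOM samples, and in 2 of 5 NC, 12 of 39 WG and 4 of 10 WL ULB samples. In NC it was also positive in 10 of 12 MAD and 10 of 12 RAD samples, where BNC1 had medians of only 0.335 and 0.0443 TPM. The NC ULB indices were -0.621, -0.601, -0.401, 0.0209 and 0.223, below the whole NC GOM range of 0.542 to 2.27. GOM libraries held 3.03 to 36.4 TPM in NC, 1.21 to 24.9 TPM in WG and 5.08 to 45.8 TPM in WL. ULB libraries were at 0, 0.0673, 0.0893, 0.0905 and 0.436 TPM in NC, reached 2.41 TPM only in WG replicate 7, and in WL were at 0 in 9 of 10 and at 0.0705 TPM in the other. The edgeR log2 fold change was -6.85 (SE 0.79, adjusted p = 9.39e-06) in NC and -6.70 (SE 0.40, adjusted p = 2.57e-26) in WG, or -8.73 without the 2 libraries, and in WL the adjusted p was 3.37e-11. With so many ULB libraries at 0, these fold changes depend on the prior count of the fit.

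LRP2 started at chr15:75754604 on the minus strand in a run of 4 intermediate bins, in a bin positive in 57.1% of the samples. Every GOM sample of the 3 diets was positive there, whereas 0 of 5 NC, 13 of 39 WG and 5 of 10 WL ULB samples were. In WL it was also positive in 8 of 10 MAD and 8 of 10 RAD samples, where LRP2 had medians of 0.612 and 0.255 TPM. Expression was 13.6 to 58.1 TPM in NC GOM and 0.116, 0.155, 0.357, 0.733 and 5.41 TPM in NC ULB, without overlap (log2 fold change -4.58, SE 0.82, edgeR adjusted p = 0.000586). In WG the medians were 20.2 and 0.331 TPM (-3.75, SE 0.39, adjusted p = 1.02e-13) and the ranges overlapped, as GOM replicate 35 held 0.461 TPM and a ULB library 19.6 TPM. Without the 2 libraries that stood apart the WG value was -3.87 (SE 0.39, adjusted p = 2.29e-14). In WL the ranges of 8.29 to 92.8 TPM and 0.0553 to 0.699 TPM were apart (-6.62, SE 0.45, adjusted p = 1.7e-10). Single WG libraries of other depots were far higher than their group, at 241 TPM in MAD and 55.1 TPM in RAD, where the medians were 0.914 and 0.233 TPM.

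CXCL14 went the other way. It started at chr2:137813118 on the minus strand, in a run of 6 intermediate bins, in a bin positive in 59.2% of the samples. That bin was positive in 0 of 9 NC, 4 of 46 WG and 3 of 10 WL GOM samples and in 4 of 5 NC, 37 of 39 WG and 10 of 10 WL ULB samples. In NC it was also positive in 11 of 12 RAD samples, where CXCL14 had a median of 9.47 TPM, below the 13.1 TPM of GOM. In WL it was positive in 10 of 10 MAD and 10 of 10 RAD samples, with medians of 32.3 and 15.3 TPM. Expression was 5.22 to 24.7 TPM in NC GOM and 19.3, 29.8, 30.3, 30.7 and 34.6 TPM in NC ULB, with 12.8 against 30.1 TPM as medians in WL and 15.9 against 37.3 TPM in WG, and the ranges overlapped in each diet. The log2 fold change was 1.11 (SE 0.31, edgeR adjusted p = 0.0115) in NC, 0.96 (SE 0.16, adjusted p = 4.84e-07) in WG and 1.42 (SE 0.25, adjusted p = 0.000164) in WL. The WG value was 1.17 (SE 0.13, adjusted p = 2.18e-13) without the 2 libraries. In NC, CXCL14 was not called with the replicate block.

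**Figure D4:**
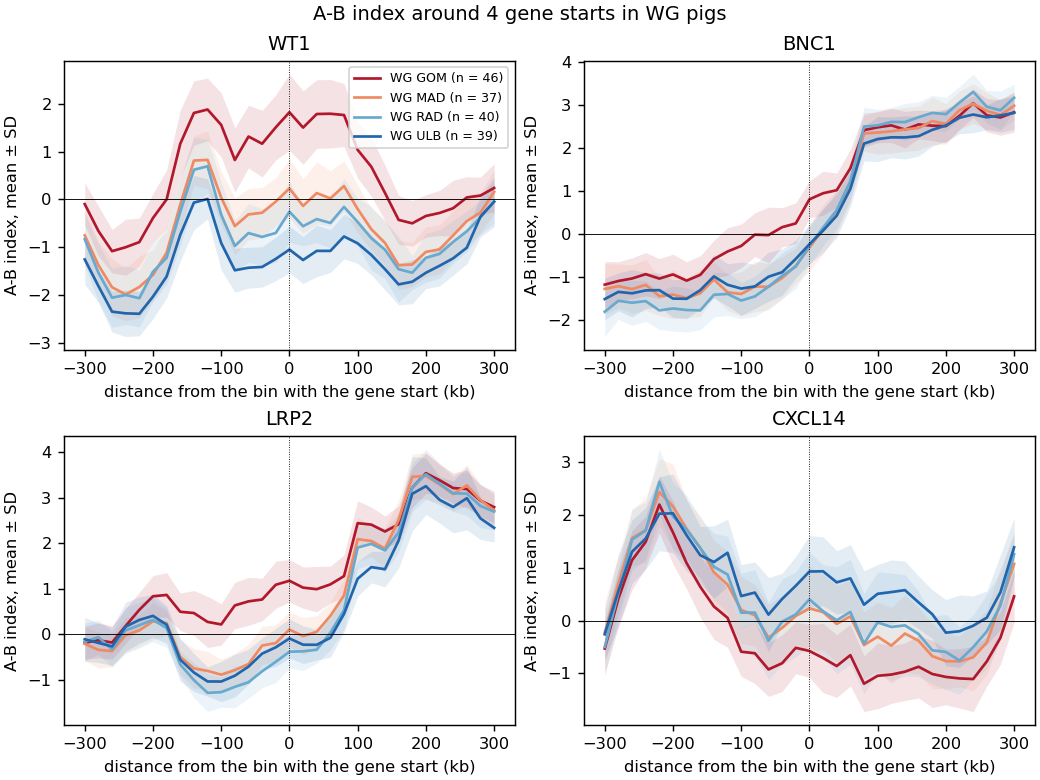
Mean A-B index (vertical axis, no unit) in WG pigs against the distance in kb from the bin that holds the start of WT1, BNC1, LRP2 or CXCL14, with 1 line per depot and shading of 1 SD over the samples on either side. At WT1, BNC1 and LRP2 the GOM line is the highest at the gene start, and at CXCL14 it is the lowest.

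Mesothelial markers moved with these genes. Of 8 mesothelial markers 4 matched the tables (KRT8, KRT18, UPK1B and WT1 itself), and 3 of the 4 were lower in ULB than in GOM in each of the 3 diets. Their summed level had medians of 211, 213 and 340 TPM in NC, WG and WL GOM (61.5 to 813 TPM over all GOM libraries), 16.1, 12.4 and 8.29 TPM in ULB (1.53 to 145.4 TPM), and between 11.7 and 18.02 TPM in MAD and RAD. No mesothelial marker had a median of 0 in any group. Lymphocyte markers were also lower in ULB, 4 of 5 tested in NC and in WG and 4 of 7 in WL. Of 8 macrophage markers, 3 were lower and 0 higher in ULB in NC and in WG and none was called in WL, with summed medians of 1332, 1688 and 1734 TPM in NC, WG and WL GOM and 888, 1095 and 1405 TPM in ULB. In contrast, 6, 1 and 4 of 7 adipocyte markers were higher in ULB in NC, WG and WL, and fibroblast markers moved both ways. The part of cell composition in the differences of expression, index and enhancer regions was not tested.

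Between 50 and 55.6% of the genes in bins with a lower index in ULB were also lower in expression, and 13.9 to 27.6% of those in bins with a higher index were higher. Outside chromosome 10, 24 tested genes started in bins with a lower index in ULB in NC, and 12 of them were called lower and 0 higher in expression (50% lower, against 33.3% of the 468 genes in other bins with a lower index). In WG the counts were 10 lower and 0 higher of 18 (55.6%, against 32.6%), and in WL 16 lower and 1 higher of 30 (53.3%, against 36.1%). Where the index was higher in ULB, 4 of 25 genes were higher and 2 lower in NC (16% higher, against 25.1% in other bins), 8 and 3 of 29 in WG (27.6%, against 21.9%) and 5 and 5 of 36 in WL (13.9%, against 21.6%). Of the genes whose bin was not called, 10 were higher and 22 lower of 140 in NC, 10 and 26 of 144 in WG and 3 and 16 of 128 in WL. These shares were not tested against each other. Genes called on both scales had the same direction in 16 of 18 cases in NC, 18 of 21 in WG and 21 of 27 in WL.

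Among the pairs with the same direction were ZFPM2, a cofactor of GATA factors (log2 fold change -1.74, SE 0.25, edgeR adjusted p = 8.48e-05 in NC, index difference -1.35), TJP1, the tight-junction protein ZO-1 (-1.40, SE 0.21, adjusted p = 0.000113, index difference -2.04), and PAPPA, a protease of IGF-binding proteins (-2.01, SE 0.31, adjusted p = 0.000146, index difference -1.14). ARHGAP24 was higher in ULB by 0.64 (SE 0.19, adjusted p = 0.0184) in NC and 1.01 (SE 0.14, adjusted p = 9.57e-06) in WL, with the index of its start bin higher by 2.44 and 1.72, and the NC value had an adjusted p of 0.0513 with the term for low libraries. Some genes went against their bin. SUCNR1 was lower in ULB, with a log2 fold change of -1.62 (SE 0.35, adjusted p = 0.00265) in NC and -1.24 (SE 0.14, adjusted p = 4.7e-13) in WG, although the index of its bin was higher in ULB by 1.15 and 0.90. VGLL3 was higher in ULB by 0.76 (SE 0.15, adjusted p = 0.00052) in WL with an index difference of -1.40. With the replicate block, neither ARHGAP24 nor SUCNR1 was called in NC. The genes of this paragraph were named after their values were seen.

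**Figure D5:**
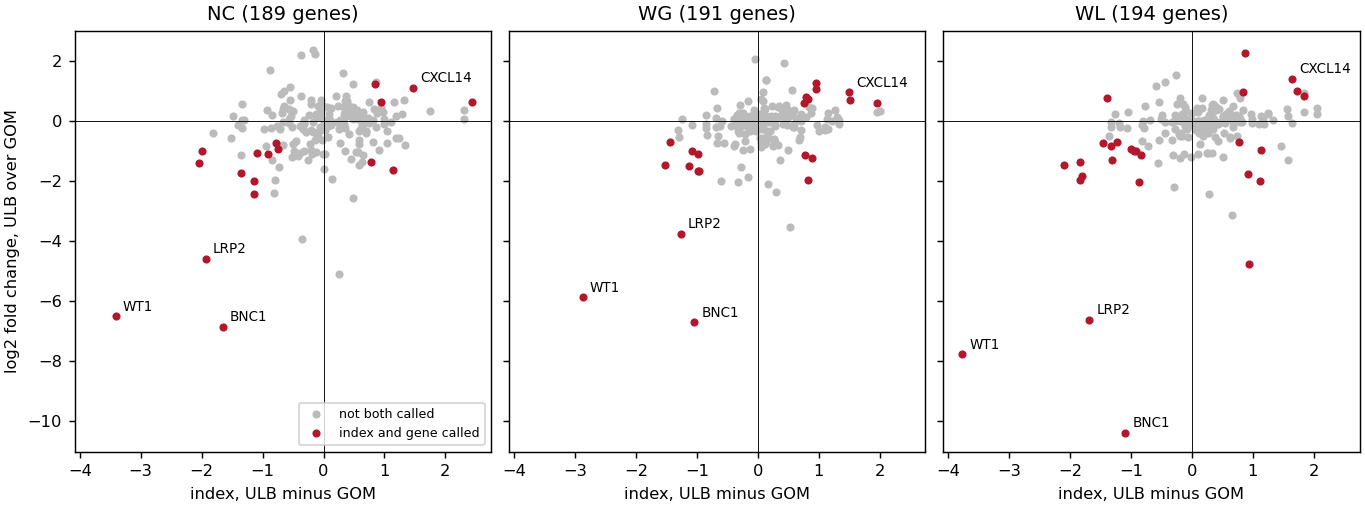
Difference of the mean A-B index (horizontal axis, ULB minus GOM, no unit) against the log2 fold change of expression (vertical axis, ULB over GOM) for the tested genes that start in intermediate bins outside chromosome 10, 1 panel per diet and 1 point per gene, with red for genes called in both index and expression. The red points with a lower index and lower expression number 12, 10 and 16 in NC, WG and WL.

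Among the other genes with the largest change between GOM and ULB, PON1, the HDL-associated paraoxonase, was higher in ULB in NC (4.15 to 21.05 against 25.3 to 137 TPM, log2 fold change 2.36, SE 0.41, edgeR adjusted p = 0.000500) and in WG (medians 7.34 and 32.2 TPM, 2.08, SE 0.30, adjusted p = 6.19e-09), while the index of its bin differed by -0.17 and -0.05, neither called. With the replicate block, neither PON1 nor ASB4, named below, was called in NC. SERPINB2, plasminogen activator inhibitor 2, was lower in ULB in NC (1.59 to 32.4 against 0 to 0.544 TPM, -5.09, SE 0.99, adjusted p = 0.00113). TMEM163, a zinc transporter, was higher in ULB in WG (1.93, SE 0.18, adjusted p = 1.13e-15), as was SAL1, a salivary lipocalin (1.38, SE 0.36, adjusted p = 0.00107). In WL the collagen gene COL25A1 (0.123 to 0.586 against 0.729 to 2.64 TPM, 2.26, SE 0.25, adjusted p = 4.15e-07) and the matrix gene ABI3BP (1.18, SE 0.23, adjusted p = 0.000406) were higher in ULB. The chemokine gene CCL4 was higher in ULB in NC (1.29, SE 0.37, adjusted p = 0.0145, called in 4 of 5 fits that each left out a ULB sample) and in WG (1.07, SE 0.19, adjusted p = 1.23e-06), and ASB4 in NC (2.21, SE 0.67, adjusted p = 0.02) could be tested in 1 of the 5 such fits and was not called with the term for low libraries (adjusted p = 0.117).

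Diet changed some of these genes, and few of the tested genes lay in bins called between diets. In GOM 47 of 225 tested genes were called between NC and WG, 22 higher and 25 lower, against 21.7% of all placed genes, and 12 of 221 between WG and WL, 3 higher and 9 lower (5.22%). In MAD the counts were 37 of 223 (19 higher and 18 lower, 9.92%) and 47 of 227 (26 and 21, 16.7%). In RAD they were 35 of 215 (20 and 15, 14.1%) and 16 of 219 (9 and 7, 6.39%), and in ULB 6 of 214 (2 and 4, 2.07%) and 17 of 219 (4 and 13, 7.99%). Outside chromosome 10, no more than 2 genes in any of these 8 comparisons were called both by expression and by the index of their bin. From NC to WG, only 5, 10, 11 and 10 tested genes lay in called bins in GOM, MAD, RAD and ULB. Of these, 1, 0, 1 and 0 were called by expression. From WG to WL 2, 2, 8 and 4 lay in called bins, and 0, 2, 2 and 0 were called. Both genes in MAD went against their index. Such small numbers do not show whether expression followed the index.

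From NC to WG in GOM, PPP1R3D, a glycogen-targeting subunit of protein phosphatase 1, rose (log2 fold change 1.15, SE 0.27, edgeR adjusted p = 0.000808) while the index of its bin fell by 0.87. KLRG1, a receptor of NK and T cells, rose by 1.27 (SE 0.39, adjusted p = 0.00857) and GHITM by 1.13 (SE 0.28, adjusted p = 0.00143). CCDC73 fell by 3.89 (SE 0.40, adjusted p = 1.06e-11), the muscle F-box gene FBXO40 fell by 1.86 (SE 0.25, adjusted p = 2.3e-08) and the purinergic receptor gene P2RY13 fell by 1.71 (SE 0.28, adjusted p = 3.76e-06). With the term for low libraries the CCDC73 value was -2.13 (adjusted p = 0.0281). FBXO40 lost its call under that term (adjusted p = 0.0981), and such libraries numbered 7 of 9 in NC and 4 of 45 in WG. From WG to WL in GOM, CD207, which encodes langerin of dendritic cells, rose by 0.71 (SE 0.21, adjusted p = 0.0227), the protocadherin gene PCDH18 by 0.69 (SE 0.18, adjusted p = 0.00742) and BNC1 by 1.03 (SE 0.28, adjusted p = 0.0131), the last with an adjusted p of 0.511 under that term. STUM, on chromosome 10, fell by 1.45 (SE 0.28, adjusted p = 0.000319), the netrin gene NTN1 fell by 0.99 (SE 0.29, adjusted p = 0.0188) and SYCP2, of the synaptonemal complex, fell by 0.92 (SE 0.23, adjusted p = 0.00601, and 0.111 under the term).

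From NC to WG in MAD, CLEC7A, which encodes the macrophage receptor dectin-1, rose by 2.04 (SE 0.41, edgeR adjusted p = 0.000422), beside a rise of 8 of 8 macrophage markers there. ACOXL rose by 1.22 (SE 0.30, adjusted p = 0.00323) and RARRES1 by 1.15 (SE 0.32, adjusted p = 0.00889), and RARRES1 also rose in RAD by 1.18 (SE 0.34, adjusted p = 0.006). PCP4, a calmodulin regulator, fell by 5.74 (SE 0.59, adjusted p = 2.81e-09) and ACTN2, the muscle alpha-actinin, fell by 2.04 (SE 0.34, adjusted p = 4.64e-05). ACTN2 had medians of 5.80 and 4.61 TPM and a single NC library at 142 TPM, and DESeq2 did not call it (log2 fold change -0.57, adjusted p = 0.0768). The NC range of PCP4 reached 1420.2 TPM over a median of 10.9 TPM, and the summed smooth muscle markers of NC MAD reached 12921 TPM over a median of 889 TPM. ETNPPL, a phospho-lyase of ethanolamine phosphate, fell by 2.77 (SE 0.50, adjusted p = 0.000125). From WG to WL in MAD, EOMES, a T-box factor of lymphocytes, rose by 2.41 (SE 0.38, adjusted p = 1.06e-05), GCSAM, a germinal-centre gene, by 2.20 (SE 0.53, adjusted p = 0.00171) and PCP4 by 1.86 (SE 0.47, adjusted p = 0.00269), beside a rise of 7 of 7 lymphocyte markers, whose summed level reached 8112 TPM in a WL MAD library over a median of 234 TPM. Under the term for low libraries GCSAM (adjusted p = 0.795) and PCP4 (0.56) lost their calls, as did LRP2 (0.41), which had fallen by 3.15 (SE 1.07, adjusted p = 0.0222, and 0.0933 with DESeq2), and NAV1 (0.0505), which had fallen by 1.65 (SE 0.45, adjusted p = 0.0048). STUM fell by 1.41 (SE 0.25, adjusted p = 4.51e-05). Libraries under 90% numbered 7 of 10 in WL and 2 of 36 in WG, and the term cut the calls in this comparison from 47 to 11.

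In RAD from NC to WG, SAMD12 rose by 1.37 (SE 0.27, edgeR adjusted p = 8.32e-05) and the index of its bin rose by 0.83, the only pair called on both scales there. SLC22A16, a carnitine transporter, fell by 2.60 (SE 0.42, adjusted p = 4.25e-06) and rose again by 1.78 (SE 0.46, adjusted p = 0.00737) from WG to WL, comparisons that share the WG samples. The chemokine gene CCL16 fell by 2.20 (SE 0.41, adjusted p = 5.01e-05) and the efflux transporter gene ABCC2 fell by 1.78 (SE 0.42, adjusted p = 0.000969), and both lost their calls under the term (0.133 and 0.093), ABCC2 also with DESeq2 (0.267). From WG to WL in RAD, PID1, a regulator of insulin signalling, rose by 0.81 (SE 0.14, adjusted p = 6.47e-05) and LMOD1, a leiomodin of smooth muscle, by 0.89 (SE 0.18, adjusted p = 0.000864), while TMEM163 fell by 1.48 (SE 0.37, adjusted p = 0.00526), CCL3L1 fell by 1.37 (SE 0.41, adjusted p = 0.0197) and NAV1 fell by 1.51 (SE 0.50, adjusted p = 0.0369, and 0.128 under the term).

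In ULB from NC to WG, TFPI, the tissue factor pathway inhibitor, fell by 1.80 (SE 0.36, edgeR adjusted p = 0.0016) and was called in 5 of 5 fits that each left out an NC sample. LSMEM1 (1.82, adjusted p = 0.0245), GIMAP8 (0.92, adjusted p = 0.0467), KIAA0408 (-1.17, adjusted p = 0.0204) and SPEF2 (-0.85, adjusted p = 0.0317) were called in 1 or 2 of the 5 and in none once the term for low libraries was added. From WG to WL, GEM, a small GTPase, rose by 0.93 (SE 0.18, adjusted p = 0.0002), COL25A1 by 0.93 (SE 0.21, adjusted p = 0.00111) and the nuclear receptor gene RXRG by 0.90 (SE 0.32, adjusted p = 0.0406, and 0.109 under the term). TMEM163 fell by 1.87 (SE 0.35, adjusted p = 0.000124), ETNPPL fell by 1.79 (SE 0.58, adjusted p = 0.0259) and SAL1 fell by 1.93 (SE 0.68, adjusted p = 0.0415, and 0.0617 under the term).

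Over the gene lists, patterning genes gave 2 called lower and 0 higher of 3 tested in NC between GOM and ULB, 2 and 0 of 3 in WG and 2 and 0 of 4 in WL, in each case WT1 and BNC1. Immune genes gave 2 higher and 0 lower of 7 tested in NC (CCL4 and CXCL14), 3 and 0 of 6 in WG (with CCL3L1) and 1 and 1 of 6 in WL (CXCL14 higher and CD207 lower). The matrix list, made of symbols such as COL, LAM and ADAMTS and without DCN, LUM or ABI3BP, gave 0 calls of 1, 1 lower of 1 (ADAMTS6, a matrix protease) and 1 higher of 2 (COL25A1). Of 6 zinc-finger genes tested, ZNF25 was lower in ULB in NC (-1.08, SE 0.19, edgeR adjusted p = 0.000518) and ZNF883 in WG, and none was called in WL. The potassium-channel interacting gene KCNIP3 was lower in ULB in WG (-0.70) and in WL (-1.06), and PCDH18, tested in every diet, was not called. No solute carrier of the list was tested between GOM and ULB. Of the lists, immune genes had the most diet calls, but this list and the zinc fingers also had the most genes tested. In MAD from WG to WL, 3 immune genes were higher and 1 lower of 7 tested, against 16.7% of all placed genes called. There the term for low libraries cut the calls among genes of the intermediate bins from 47 to 11. No contrast between lists is read from these counts.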

How the data were processed

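The authors aligned Hi-C reads to Sscrofa11.1 with Juicer, balanced the contact matrices, quantile-normalized them between samples, signed principal-component compartments by gene density and GC content, and deposited an A-B index, a score without unit, for each 20-kb autosomal bin and sample. The TADs deposited for each sample were called by the authors with deDoc and have no score. RNA reads were quantified by the authors with kallisto 0.43.0 and deposited as TPM and as estimated counts per gene. Enhancer tables hold the ROSE signal that the authors computed on H3K27ac reads, merged per table and mapped with BWA 0.7.15 and SAMtools 1.3.1. Peaks were called by SICER. Tool versions are from the submitters' processing notes, and 9 index columns that match no sample were not used.

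Bins were counted as intermediate from the sign of the index over 240 samples. The index was compared with limma 3.58.1, with Benjamini-Hochberg adjustment over all bins, and the estimated counts, rounded to whole numbers, with the quasi-likelihood test of edgeR 4.0.16, with adjustment over all protein-coding genes that passed 0.5 TPM in 80% of the samples of either group (R 4.3.3). Values are differences or log2 fold changes of the second group over the first, each with its standard error (SE). Of 21280 genes, 14821 had symbols and 13052 were placed by a unique symbol on RefSeq Sscrofa11.1, which has 18725 autosomal protein-coding starts. Motifs and GC content were read from the same build.

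RNA depth was 3.34e+06 to 2.29e+07 estimated counts per sample. The index has no counts, so its precision is the spread between samples. The labels do not say that replicates are separate pigs or that a number marks the same pig in each depot, so p-values measure the spread between these samples. Same-numbered GOM and ULB samples had correlated deviations over 0.1 in 2 of 4, 16 of 39 and 6 of 10 pairs for the index and in 2 of 4, 37 of 38 and 7 of 10 pairs for RNA in NC, WG and WL. The paper took all 4 depots from each pig, so same-numbered samples may share a pig. The main fits did not pair them, as the labels do not give the pairing. If they do share a pig, GOM and ULB were not independent in these fits, and the fits with a replicate block apply. On simulated data edgeR recovered 166 of 200 genes changed 4-fold with 6 false calls among 14316 genes for GOM against ULB in NC, and limma recovered 194 of 200 shifted bins with 1 false call. Members, lists and tests were chosen with earlier results of these data known. Genes named were the 3 higher and 3 lower with the largest fold change among called genes in each of 11 comparisons, the 10 most abundant and those of the lists, and bins named were the 3 with the largest WG difference in each direction and the 3 longest runs. Alternatives were DESeq2 1.42.0, other limits and filters, quantile normalization, a term for libraries with under 90% of TPM on protein-coding genes, a replicate block, leaving out NC ULB samples, and, chosen after seeing the data, leaving out chromosome 10 or 2 WG libraries.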

Additional observations from a re-analysis of the deposited data

Results flagged for a closer look

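In 14 of 72 sets of values, each from a group of 5, 9 or 10 samples, the highest or lowest sample lay far from the rest by Dixon's criterion. For normally distributed values chance meets it in about 1 in 20 sets. Several of these sets are TPM near 0, for which that rate need not hold. The values share samples and are not independent. Among NC ULB libraries, the highest held 0.436 TPM of BNC1 (next 0.0905) and the highest 5.41 TPM of LRP2 (next 0.733). In WL GOM, the sample with the lowest share of positive intermediate bins was at 32.3% (next 51.9%), the highest index at WT1 was 4.69 (next 3.12), the highest WT1 level was 181 TPM (next 97.5), the highest LRP2 level was 92.8 TPM (next 51.6) and the lowest ARHGAP24 level was 5.44 TPM (next 9.38).

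In WL MAD, the lowest share of positive intermediate bins was 36.2% (next 58.2%), the highest BNC1 level was 0.585 TPM (next 0.261) and the highest index at CXCL14 was 2.57 (next 1.38). In WL RAD, the highest index at WT1 was 1.17 (next 0.381) and the highest CXCL14 level was 33.5 TPM (next 18.4). In WL ULB, the highest WT1 level was 1.71 TPM (next 0.420) and a single library had any BNC1, at 0.0705 TPM. The causes were not tested.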

How the results depend on the processing

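Limits of 30 to 70% gave 7151 intermediate bins and 45 to 55% gave 1888. Weighting the 12 groups equally gave 3620, of which 3011 were shared, quantile normalization gave 3727 with 3356 shared, and leaving out each NC ULB sample gave 3559 to 3568. The share near a border was 70.98% within 40 kb and 90.5% without chromosome 10, the share high in a group and low in another was 80.1% at limits of 80 and 20%, 19.5% of bins had a TAD boundary within 20 kb, and 18.5% had at least 5 kb of enhancer.

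Of the index counts, 37 of 57 stayed within 1.5 times. GOM against ULB in NC gave 722 at an adjusted p under 0.01, 869 without chromosome 10 and 1086 to 1278 leaving out each NC ULB sample, and WG gave 833 without chromosome 10. With a difference over 0.5 the NC to WG counts were 290, 352, 460 and 395 and the WG to WL counts 458, 214, 544 and 532 in GOM, MAD, RAD and ULB. An adjusted p under 0.01 left 81 in GOM and 21 in MAD from WG to WL and 85 in ULB from NC to WG. Quantile normalization left 45, 16 and 41 from WG to WL in GOM, MAD and RAD and 125 from NC to WG in ULB, where leaving out each NC sample gave 44 (replicate 5) to 349, and 125 without replicate 12.

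Of the expression counts, 46 of 58 stayed within 1.5 times, DESeq2 in 11 of 11. Without the filter on low genes the counts were 92 for GOM against ULB in WG, 72, 58, 56 and 12 from NC to WG in GOM, MAD, RAD and ULB, and 20 from WG to WL in GOM. The term for low libraries left 11 from WG to WL in MAD and 1 from NC to WG in ULB, where leaving out each NC sample gave 1 (replicate 9) to 8, with 2 without replicate 2 and 3 without replicate 5. GOM against ULB in NC gave 48 to 67. With a replicate block the counts were 29, 61 and 53 for expression and 1310, 1416 and 1305 for the index in NC, WG and WL. The labels do not give the pairing and not every pair was correlated, but in WG 37 of 38 RNA pairs were over 0.1, with a median r of 0.583 for the same number and -0.0625 for other numbers. In NC, PON1 (adjusted p = 0.0579), ASB4 (0.366), CXCL14 (0.159), SUCNR1 (0.0806), ARHGAP24 (0.0631), NME2 (0.0566), GHITM (0.134), COLEC12 (0.103) and VIPR2 (0.107) were not called with the block. Among the intermediate bins, quantile normalization evened or turned the balance of rises and falls from NC to WG in GOM, MAD, RAD and ULB and from WG to WL in MAD and RAD. The causes of these shifts were not tested.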
